A study of Homo sapiens with 6 samples.

Results

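MicroRNA host gene lncRNAs are long RNAs whose exons or introns hold one or more microRNA hairpins. They were taken here as every gene whose symbol in the deposited expression files begins with MIR and ends with HG, which gave 41 of 39739 genes. The libraries came from HGC27, an established line of undifferentiated human gastric cancer cells. In the HGC27-FN1 3′-UTR group (3 libraries), the 3′ untranslated region of *FN1*, the fibronectin gene, was stably overexpressed from a lentivirus, and the study's methods describe collecting puromycin-resistant cells and name no single clone. The HGC27-control group (3 libraries) consisted of the same line with the genotype given as control, without word of a vector. The labels do not say whether libraries of a group came from separate cultures, so p-values measure only the spread between these libraries. The study asked which genes and pathways follow the *FN1* 3′-UTR, which it examined as an RNA able to bind microRNAs. Levels were in RPKM, reads scaled to gene length and to all reads assigned to genes.

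A host transcript is the primary RNA from which Drosha and DGCR8 cut a hairpin in the nucleus. Dicer then trims the hairpin to a mature microRNA, which an Argonaute protein loads and which pairs with target mRNAs through its seed, bases 2 to 8. These libraries recorded the host RNA, and a level of host RNA is not a level of mature microRNA, since cutting the hairpin, splicing and decay set the 2 apart.

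A reference set of RefSeq microRNAs (GRCh38.p14), with the microRNA rows of the expression data added, placed 61 microRNA genes inside 33 of the 41 host genes. Of these, 59 lay on the strand of the host, 25 in an exon and 34 in an intron. The set was incomplete. It had no entry for the microRNAs of some hosts, among them *MIR22HG*, *MIR155HG* and *MIR4458HG*, so a host outside the 33 does not thereby lack a microRNA. Among the 3 host genes that passed the test described below, *MIR600HG* carried miR-600 in an exon and *MIR4435-2HG* carried miR-4435 in an intron, and the third was *MIR22HG*, host of miR-22. The mature sequences of the first 2 are shown because their hosts differed between the groups, with the seed in capitals, from 5′ to 3′.
miR-600: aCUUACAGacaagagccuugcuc
miR-4435: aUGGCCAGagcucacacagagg
They do not share a seed.

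Several hosts carried microRNAs with one and the same seed, so that different host genes can supply microRNAs of one family. Among the microRNAs with an entry, the largest such group held the let-7 seed GAGGUAG, found in 5 mature microRNAs lying within 5 host genes. These are shown because the levels of their hosts are set side by side further on, and let-7i-5p, which lies outside every host gene listed here, is added because the study tested it against the *FN1* 3′-UTR.
let-7a-5p (*MIR100HG* and *MIRLET7BHG*): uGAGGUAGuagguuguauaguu
let-7b-5p (*MIRLET7BHG*): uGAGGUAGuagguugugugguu
let-7c-5p (*MIR99AHG*): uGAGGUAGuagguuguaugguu
let-7d-5p (within *MIRLET7DHG*, opposite strand): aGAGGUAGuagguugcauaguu
miR-4500 (*MIR4500HG*): uGAGGUAGuaguuucuu
let-7i-5p (no host among these genes): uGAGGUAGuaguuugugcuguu
The shortest of them is miR-4500, with 17 bases. let-7d lies on the plus strand, opposite to *MIRLET7DHG*, so transcripts of that gene do not contain its hairpin. The microRNA of *MIR4458HG*, miR-4458, had no entry, so its seed was not compared and the list of hosts of this seed may be incomplete.

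The seeds of 2 further families are shown, picked after values were seen. Other seeds shared by hosts with reads, such as ACCCGUA of *MIR100HG* and *MIR99AHG*, are not shown. miR-195-5p and miR-497-5p of *MIR497HG* and miR-424-5p of *MIR503HG* share AGCAGCA, and miR-503-5p of *MIR503HG* has AGCAGCG in its place.
miR-195-5p: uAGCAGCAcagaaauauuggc
miR-497-5p: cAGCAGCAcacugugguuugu
miR-424-5p: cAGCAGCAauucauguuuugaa
miR-503-5p: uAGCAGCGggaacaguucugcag
miR-221-3p and miR-222-3p, both in introns of *MIR222HG*, share the seed GCUACAU and are shown because *MIR222HG* and the row of *MIR221* lay on the same side of the control libraries.
miR-221-3p: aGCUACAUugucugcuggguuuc
miR-222-3p: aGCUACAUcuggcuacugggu

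Between 16357085 and 37037532 reads were assigned to genes per library, at 16357085, 24423047 and 29202046 for HGC27-FN1 3′-UTR cells and 22332816, 30817381 and 37037532 for HGC27-control cells. Host genes took 5839 reads in all in HGC27-FN1 3′-UTR cells and 7476 in HGC27-control cells. *FN1* itself, whose 3′-UTR the construct carries, was at 0.777, 0.745 and 0.819 RPKM against 0.543, 0.474 and 0.532 RPKM, a log2 fold change of 0.52 (SE 0.11, adjusted p = 0.0292). This value covers the whole gene, so RNA of the construct and of the gene of the cells cannot be told apart. Of the marker lists, 5 of 7 epithelial genes rose and the summed level of the list was 18.6 to 27.5 RPKM against 2.97 to 3.35 RPKM. The mesenchymal list, led by *VIM*, summed to 312 to 338 RPKM against 306 to 344 RPKM, with 1 of 5 genes (*SNAI2*) higher. The fibroblast list summed to 168 to 171 RPKM against 114 to 132 RPKM, with 3 of 5 genes higher. The immune list was at 4.63 to 6.10 RPKM against 1.20 to 1.49 RPKM, where *LYZ* alone passed the test and *PTPRC*, the defining leukocyte gene, had 6 and 7 reads in the groups. Of 4 endothelial genes *PECAM1* was at 0 in every library and the sum did not exceed 0.0222 RPKM. The part of these differences in the host gene values was not tested.

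Most host genes were at low levels. A total of 21 of the 41 (51.2%) reached at least 0.1 RPKM in 3 or more libraries and were tested, against 58.6% of all genes and 47.6% of the lncRNAs of GENCODE 29. Of these 21, 18 were at 0.1 RPKM or more in all 6 libraries, and *MIR222HG* alone passed only through its 3 HGC27-FN1 3′-UTR libraries. The median level of the tested hosts was 0.466 RPKM, below the 0.808 RPKM of tested lncRNAs and the 3.75 RPKM of tested protein-coding genes. *MIR762HG* alone exceeded 10 RPKM, and 8 host genes exceeded 1 RPKM as a mean of the 6 libraries.

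**Figure D1:**
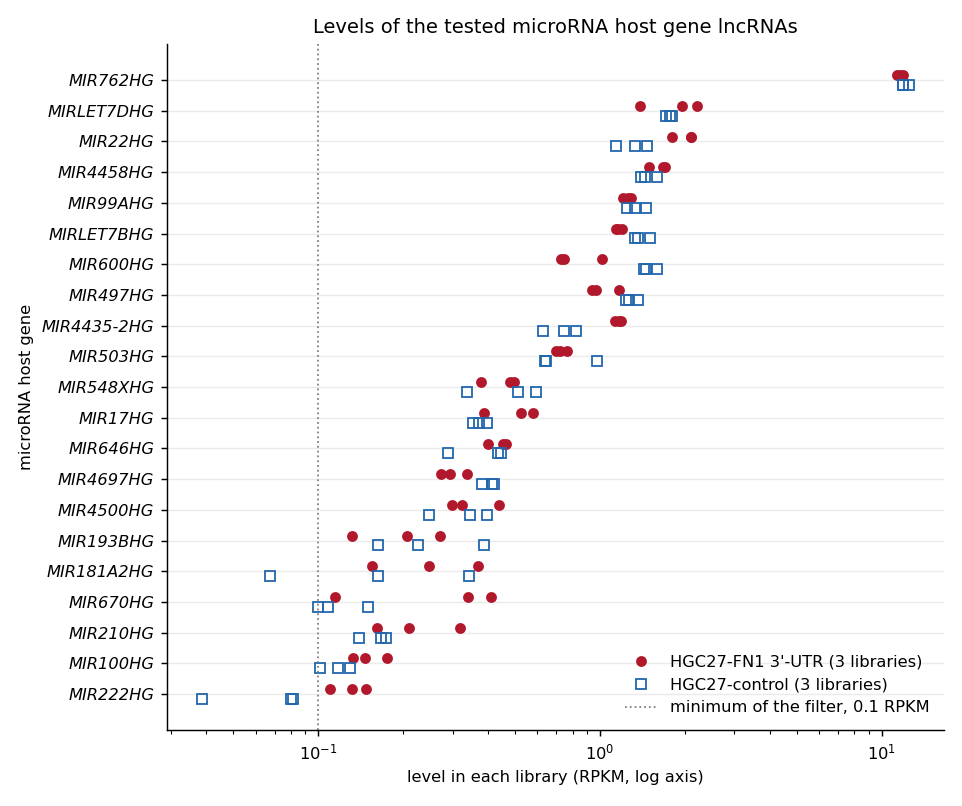
Level of each of the 21 tested host genes in each library, in RPKM on a log axis, with HGC27-FN1 3′-UTR libraries as filled red circles and HGC27-control libraries as open blue squares. *MIR762HG* lies near 12 RPKM and the other host genes at up to 2.21 RPKM, and the groups of *MIR600HG*, *MIR4435-2HG* and *MIR22HG* are apart.

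Of the 21 tested host genes, 3 passed the test at an adjusted p under 0.05 (limma on log2 of RPKM plus 0.1, adjusted over all 23299 genes tested): *MIR4435-2HG* and *MIR22HG* were higher and *MIR600HG* was lower in HGC27-FN1 3′-UTR cells. This was 14.3% of the tested host genes, beside 13.0% of all genes tested (5.62% higher and 7.36% lower) and 8.62% of tested lncRNAs, so the share of host genes called lay near the background. In bulk libraries like these, RNA per cell and the share of cells that carry the RNA cannot be told apart. By the criteria of the study, an absolute log2 fold change above 1 with an unadjusted p under 0.05, no host gene passed, against 2.47% of all genes tested. These cut-offs were applied to the fit described here, which is not the study's own analysis and understates the change of low genes. At an unadjusted p under 0.05 alone there were 5 host genes, beside 29.6% of all genes. The log2 fold changes of the 21 ran from -0.79 to 0.74 with a median of 0.08, and 12 were above 0 and 9 below, where the median over all genes was -0.04. The 95% interval of the difference included 0 for 16 host genes, and for 17 it lay within a log2 fold change of 1 in either direction.

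**Figure D2:**
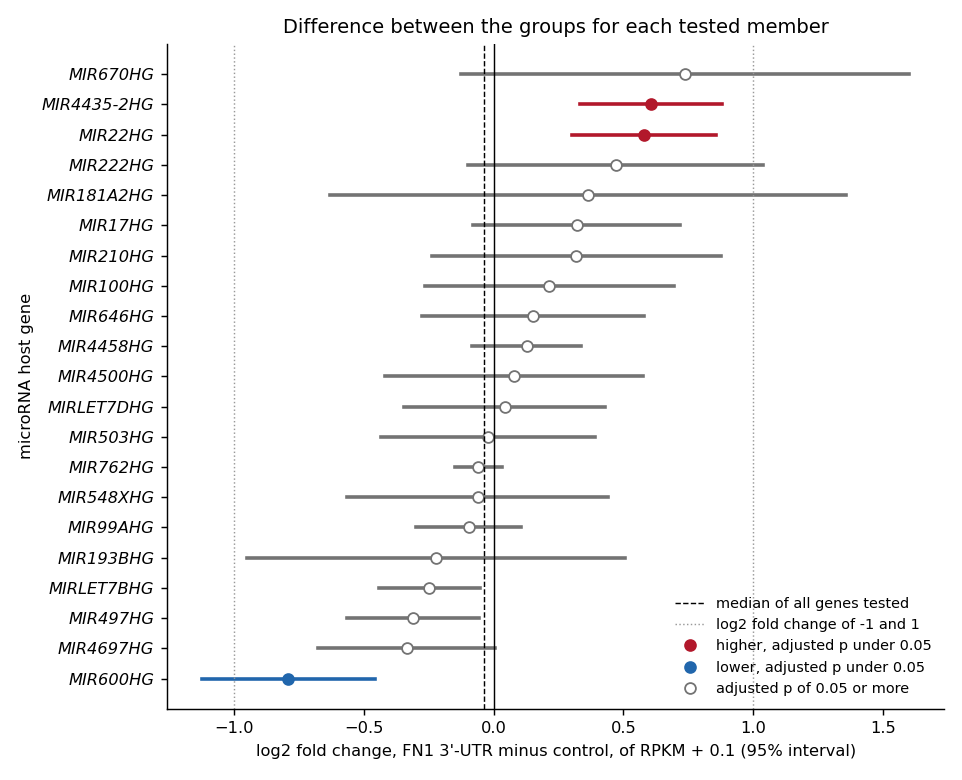
Log2 fold change of each tested host gene (x axis, HGC27-FN1 3′-UTR minus HGC27-control, RPKM plus 0.1) with its 95% interval, the dashed line marking the median of all genes tested. *MIR600HG* at -0.79 and *MIR4435-2HG* and *MIR22HG* at 0.61 and 0.58 are the filled points, and the other 18 had adjusted p values from 0.0981 to 0.953.

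*MIR600HG* was lower and had the largest difference of the 21 in size. It spans chromosome 9, bases 123109494 to 123115477 on the minus strand (GRCh38), and its exon holds the hairpin of miR-600 printed above. The level was 0.746, 0.725 and 1.02 RPKM in HGC27-FN1 3′-UTR cells and 1.44, 1.59 and 1.45 RPKM in HGC27-control cells. All 3 HGC27-FN1 3′-UTR libraries lay below the control libraries, with replicate 3 the highest of them. The ratio of the means was 0.556 and the log2 fold change was -0.79 (SE 0.14, 95% interval -1.12 to -0.46, adjusted p = 0.0174), from 357 against 807 reads. The gene shares 254 of its exon bases (4.24%) on the same strand with *STRBP*, which encodes an RNA-binding protein of spermatids and was lower as well, at 5.75, 5.37 and 5.20 RPKM against 7.14, 7.19 and 7.44 RPKM. The log2 fold change of *STRBP* was -0.41 (SE 0.05, adjusted p = 0.0059), and how reads of the shared bases were assigned is not given in the sources used here. *RABGAP1*, 4628 bases away on the other strand, was at -0.20 on the same scale (adjusted p = 0.0689). The call of *MIR600HG* was lost without HGC27-FN1 3′-UTR replicate 1 or 2 or without control replicate 2 or 3, where the adjusted p was 0.0531 to 0.0735 and the log2 fold change -0.71 to -0.81.

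*MIR4435-2HG*, a lncRNA known for a role in the survival of myeloid cells, was higher. It spans chromosome 2, bases 111196350 to 111495100 on the minus strand, and miR-4435 lies in one of its introns. Levels were 1.19, 1.17 and 1.13 RPKM against 0.627, 0.821 and 0.746 RPKM in the control libraries. The 3 HGC27-FN1 3′-UTR libraries lay close together and above every control library. The ratio of the means was 1.59 and the log2 fold change was 0.61 (SE 0.11, 95% interval 0.33 to 0.88, adjusted p = 0.0213), from 687 against 569 reads. The row of the miR-4435 hairpin itself (*MIR4435-2*) had 0 reads in every library.

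A stretch of this gene has a near-identical copy elsewhere on chromosome 2. Of the 50-base words in the *MIR4435-2HG* transcripts of GENCODE 29, 27.8% also occurred in other genes, 21.6% in *CYTOR*, a lncRNA that the files list under its older name *LINC00152*. *LINC00152* was also higher, at 3.68, 2.97 and 3.17 RPKM against 1.81, 1.85 and 1.95 RPKM, with a log2 fold change of 0.77 (SE 0.09, adjusted p = 0.0052). How reads matching both copies were counted is not given in the sources used here, so the 2 values may not be independent and the level of either is uncertain. *BCL2L11*, which encodes the pro-apoptotic protein BIM and lies 27903 bases from *MIR4435-2HG*, was at 1.18, 1.03 and 0.880 RPKM against 1.07, 1.16 and 1.09 RPKM (log2 fold change -0.10, adjusted p = 0.652), with overlapping groups. The call of *MIR4435-2HG* was lost without any one of the 3 HGC27-FN1 3′-UTR replicates and without control replicate 3, where the adjusted p was 0.0577 to 0.0697 and the log2 fold change 0.59 to 0.63.

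*MIR22HG*, whose spliced RNA carries miR-22, was the second host gene that was higher. It lies on chromosome 17, bases 1711493 to 1717174, minus strand. Its level was 2.11, 1.80 and 2.11 RPKM against 1.14, 1.47 and 1.33 RPKM. The lowest HGC27-FN1 3′-UTR library, replicate 2, was above the highest control library, also replicate 2. The ratio of the means was 1.53 and the log2 fold change 0.58 (SE 0.11, 95% interval 0.30 to 0.86, adjusted p = 0.0249), from 418 against 358 reads. The gene next to it on the same strand moved the other way. *TLCD2*, which encodes a membrane protein with a TLC domain, lies 1055 bases away and fell from 2.13, 2.09 and 1.69 RPKM to 1.33, 1.23 and 1.23 RPKM (log2 fold change -0.60, SE 0.10, adjusted p = 0.0177). *WDR81*, whose span overlaps *MIR22HG* on the opposite strand, was at -0.03 (adjusted p = 0.881). The call of *MIR22HG* was lost without HGC27-FN1 3′-UTR replicate 1 or 3 or without any one of the control replicates, where the adjusted p was 0.0502 to 0.0800 and the log2 fold change 0.49 to 0.66.

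With the replicate number added to the fit as a block, none of the 3 host genes passed, at adjusted p values of 0.0583 for *MIR600HG*, 0.0688 for *MIR4435-2HG* and 0.0836 for *MIR22HG*, and the calls over all genes dropped to 1162 from 3025.

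**Figure D3:**
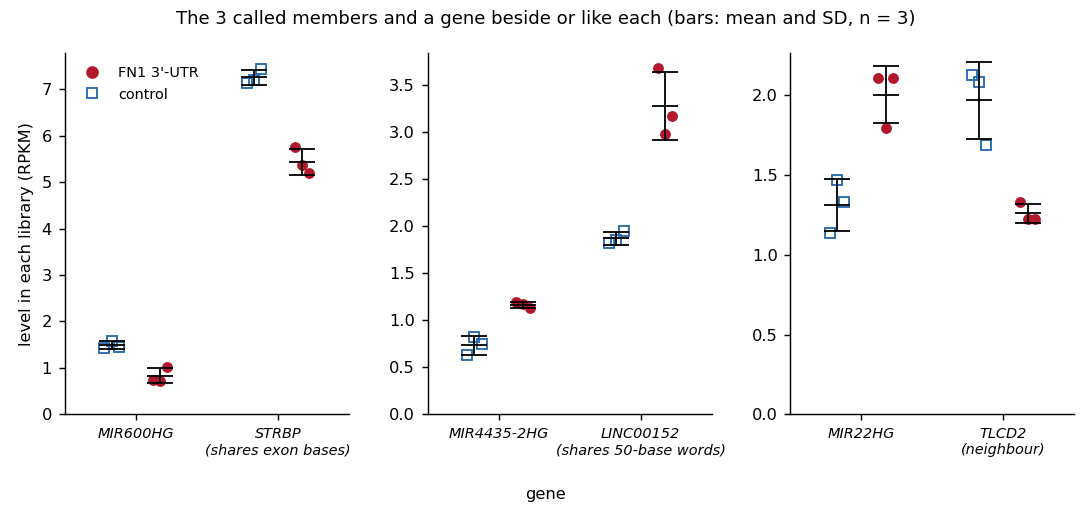
Level in each library, in RPKM, of the 3 host genes that passed the test, with bars for the mean and SD of 3 libraries. Beside each is a gene that shares exon bases (*STRBP*) or 50-base words (*LINC00152*) with it or is its neighbour (*TLCD2*). *STRBP* and *LINC00152* differ in the direction of their host gene, and *TLCD2* falls from a mean of 1.97 to 1.26 RPKM where *MIR22HG* rises from 1.31 to 2.01 RPKM.

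A wider view is given by the 8 of 21 host genes (38.1%) whose groups did not overlap, beside 36.0% of all genes tested. The 4 on the high side were *MIR4435-2HG*, *MIR22HG*, *MIR222HG* and *MIR100HG*, and the 4 on the low side were *MIR600HG*, *MIRLET7BHG*, *MIR497HG* and *MIR4697HG*. *MIR222HG* entered the test only through the group where it was high, so the filter favoured its place on the high side. Over all genes, 14.3% were separate on the high side and 21.7% on the low side.

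None of the 5 hosts listed for the let-7 seed passed the test. *MIRLET7BHG*, which carries let-7a-3 and let-7b in its exons on chromosome 22, was at 1.16, 1.14 and 1.20 RPKM against 1.37, 1.33 and 1.51 RPKM. Every HGC27-FN1 3′-UTR library lay below every control library, by a small margin. The log2 fold change of -0.25 (SE 0.08, 95% interval -0.44 to -0.05) did not pass (adjusted p = 0.0981). *MIR99AHG*, the host of miR-99a, let-7c and miR-125b-2 on chromosome 21, was at 1.26, 1.29 and 1.21 RPKM against 1.34, 1.45 and 1.25 RPKM. Its groups overlapped, and the log2 fold change was -0.10 (95% interval -0.30 to 0.11, adjusted p = 0.510). *MIR100HG*, the host of the sister cluster of miR-100, let-7a-2 and miR-125b-1 on chromosome 11, was much lower, at 0.133, 0.175 and 0.146 RPKM against 0.102, 0.118 and 0.130 RPKM. Its 3 HGC27-FN1 3′-UTR libraries were the higher ones, but replicate 1 exceeded control replicate 3 by a narrow margin, and the log2 fold change was 0.21 (95% interval -0.26 to 0.69, adjusted p = 0.535). *MIR4500HG* had overlapping groups at 0.299, 0.438 and 0.324 RPKM against 0.397, 0.347 and 0.247 RPKM (log2 fold change 0.08, adjusted p = 0.841).

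*MIRLET7DHG* had the widest spread among HGC27-FN1 3′-UTR libraries of the hosts above 1 RPKM, at 1.39, 1.96 and 2.21 RPKM, with the control libraries in between at 1.80, 1.77 and 1.72 RPKM. The log2 fold change was 0.04 (95% interval -0.34 to 0.43, adjusted p = 0.895). It shares 85.7% of its exon bases on the opposite strand with *RP11-2B6.2*, at a log2 fold change of 0.05, and the strand setting used for counting is not given in the sources used here, so the 2 cannot be told apart with certainty. Summed over the 5 hosts listed for the let-7 seed, the level was 4.24, 4.99 and 5.08 RPKM against 5.00, 5.02 and 4.86 RPKM, with overlapping groups. Without *MIRLET7DHG*, whose RNA does not contain let-7d, the sum was 2.85, 3.04 and 2.88 RPKM against 3.20, 3.25 and 3.14 RPKM. In that sum the HGC27-FN1 3′-UTR libraries lay below the control libraries, and *MIRLET7BHG* and *MIR99AHG* made up most of it. The sum holds only the listed hosts. It leaves out *HUWE1*, a protein-coding host of let-7f-2 given further on, which was lower (adjusted p = 0.0046). *MIR4458HG*, whose microRNA had no entry, is not in the sum either and was at 1.49, 1.71 and 1.67 RPKM against 1.44, 1.40 and 1.59 RPKM. The order of the groups in the sum therefore depends on which hosts are counted.

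**Figure D4:**
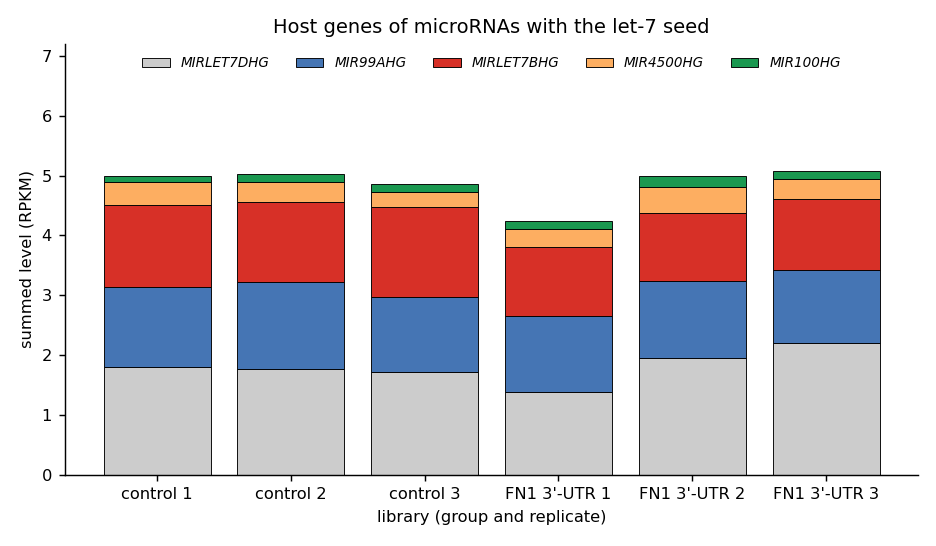
Level of the 5 host genes listed for the let-7 seed, stacked for each library (y axis, RPKM, starting at 0). The stacks end between 4.24 and 5.08 RPKM, and *MIRLET7DHG* (grey), on the strand opposite to let-7d, takes 1.39 to 2.21 RPKM of each.

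*LIN28B*, an RNA-binding protein that blocks the maturation of let-7, was one of 24 tested genes of microRNA processing and silencing, from a list chosen with earlier results of these data known. It was higher, at 3.14, 3.21 and 3.00 RPKM against 2.51, 2.52 and 2.40 RPKM (log2 fold change 0.32, SE 0.05, adjusted p = 0.0169). *RAN*, which drives the export of hairpins with exportin-5, and the splicing factor *SRSF3* were higher by 0.15 and 0.20 on the log2 scale (adjusted p = 0.0242 and 0.0248). *AGO4*, an Argonaute, was lower, at 2.10, 2.12 and 2.14 RPKM against 2.93, 3.10 and 2.89 RPKM (log2 fold change -0.47, SE 0.05, adjusted p = 0.0055). The other 20 did not pass, so 16.7% of the list was called, near the 18.5% of tested protein-coding genes and the 13.0% of all genes. The median over the 24 was 0.01, beside -0.04 over all genes. *LIN28A* was at 4 and 3 reads in the groups.

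The seed AGCAGCA marks the miR-15 family, known to restrain the cell cycle, and neither of its hosts here passed the test. *MIR497HG* on chromosome 17 was at 0.939, 0.970 and 1.17 RPKM against 1.24, 1.27 and 1.37 RPKM. Its groups did not overlap, and the log2 fold change of -0.31 (SE 0.11, 95% interval -0.57 to -0.05) did not pass (adjusted p = 0.109). It shares 38.2% of its exon bases on the opposite strand with *C17orf49*, which was at a log2 fold change of -0.20 (adjusted p = 0.153), and 16.1% with the readthrough gene *RNASEK-C17orf49*, at 0.03 (adjusted p = 0.741). *MIR503HG* on the X chromosome was at 0.766, 0.699 and 0.721 RPKM against 0.637, 0.979 and 0.645 RPKM. Only control replicate 2 stood apart, and the log2 fold change was -0.02 (95% interval -0.43 to 0.39, adjusted p = 0.953). The difference between these 2 hosts was not tested.

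*MIR762HG* had the highest level of the host genes and the smallest SE of the 21. Its level was 11.9, 11.6 and 11.3 RPKM against 11.9, 11.9 and 12.5 RPKM, with overlapping groups. The log2 fold change was -0.06, and the 95% interval, -0.15 to 0.03, was the narrowest of the 21 (adjusted p = 0.364). On the opposite strand it shares 27.5% of its exon bases with *BCL7C* and 30.9% with *AC106782.20*. The strand setting used for counting is not given in the sources used here, so part of its reads may belong to those genes. *BCL7C* was at 19.9, 20.2 and 19.6 RPKM against 21.0, 20.5 and 21.0 RPKM (adjusted p = 0.187). The 83-base row of *MIR762*, in an intron of the host, held 4083 reads over the 6 libraries against 3451 for the host, and per length it was at 290, 304 and 291 RPKM against 331, 321 and 303 RPKM. The groups of *MIR762* overlapped by FN1 3′-UTR replicate 2 and control replicate 3 (log2 fold change -0.11, adjusted p = 0.144).

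*MIR4458HG* was at 1.49, 1.71 and 1.67 RPKM against 1.44, 1.40 and 1.59 RPKM. Its groups overlapped, with a log2 fold change of 0.13 (95% interval -0.08 to 0.34, adjusted p = 0.388). *MIR4697HG*, which carries miR-4697 in an exon, was at 0.272, 0.293 and 0.338 RPKM against 0.382, 0.421 and 0.413 RPKM. Each HGC27-FN1 3′-UTR library of *MIR4697HG* was below the control libraries, and the log2 fold change of -0.33 (SE 0.14) did not pass (adjusted p = 0.175).

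*MIR17HG* and *MIR210HG* host microRNAs known from growth and from hypoxia. *MIR17HG*, the polycistron of miR-17, miR-18a, miR-19a, miR-20a, miR-19b-1 and miR-92a-1 and a known target of MYC, was at 0.525, 0.387 and 0.579 RPKM against 0.398, 0.353 and 0.371 RPKM. HGC27-FN1 3′-UTR replicate 2 lay within the control range, and the log2 fold change of 0.32 (95% interval -0.08 to 0.72) did not pass (adjusted p = 0.257). *MIR210HG*, host of the microRNA that HIF1A induces in hypoxia, was at 0.211, 0.318 and 0.162 RPKM against 0.174, 0.168 and 0.140 RPKM, also with overlap. The log2 fold change of *MIR210HG* was 0.32 (95% interval -0.24 to 0.87, adjusted p = 0.417), from 37 and 33 reads.

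*MIR222HG* carries the paired microRNAs miR-221 and miR-222, which are known to act on the cell cycle inhibitor p27. It was at 0.110, 0.132 and 0.148 RPKM against 0.0804, 0.0816 and 0.0388 RPKM. All 3 HGC27-FN1 3′-UTR libraries were higher, and as the control libraries were all under 0.1 RPKM, the gene entered the test only through the group where it was high. The log2 fold change was 0.47 (SE 0.24, 95% interval -0.10 to 1.04, adjusted p = 0.245), from 26 against 16 reads. The 110-base row of *MIR221* in its intron was at 3.89, 2.23 and 2.18 RPKM against 1.63, 0.590 and 0.491 RPKM. This row too was higher in every HGC27-FN1 3′-UTR library, with 20 against 8 reads, and it did not pass (log2 fold change 1.64, SE 0.44, adjusted p = 0.0605). The row of *MIR222* had 1 read in all.

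The remaining tested host genes were low and their groups overlapped. *MIR670HG* had the highest log2 fold change of the tested host genes, 0.74, with a 95% interval of -0.13 to 1.60 (adjusted p = 0.231). Its level was 0.341, 0.411 and 0.115 RPKM against 0.0998, 0.109 and 0.151 RPKM, so that replicates 1 and 2 of the HGC27-FN1 3′-UTR group carried the difference, from 17 against 10 reads. Without HGC27-FN1 3′-UTR replicate 3 the log2 fold change was 1.12 and passed the test (adjusted p = 0.0485). *MIR181A2HG*, *MIR646HG*, *MIR193BHG*, host of miR-193b and miR-365a, and *MIR548XHG* had log2 fold changes of 0.36, 0.15, -0.22 and -0.06 (adjusted p = 0.618, 0.633, 0.683 and 0.884). The 95% interval of *MIR181A2HG* ran from -0.63 to 1.35 with 11 against 12 reads, so a level 2 times higher lay within it, and its control libraries alone spread from 0.0676 to 0.343 RPKM.

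**Figure D5:**
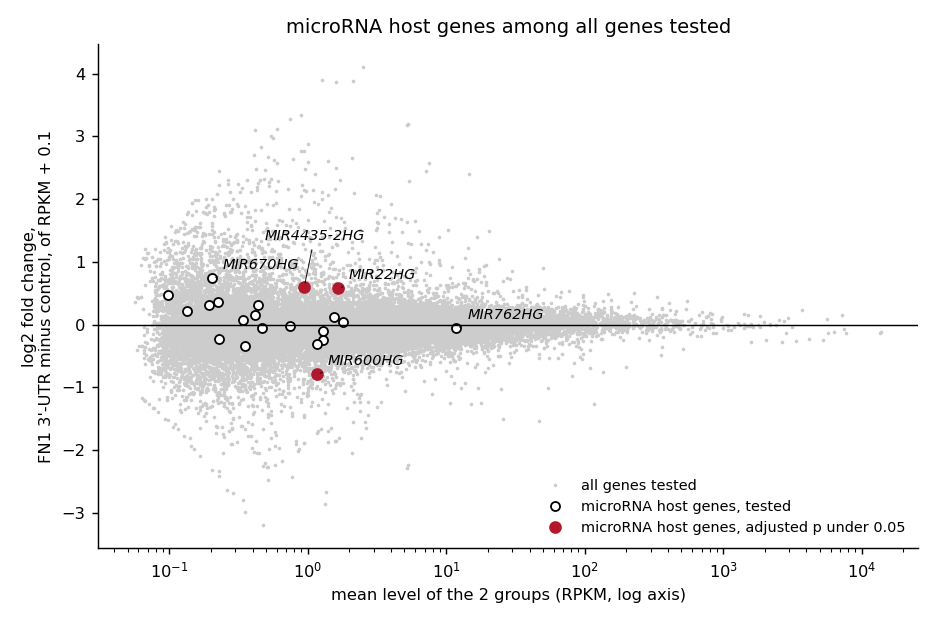
Log2 fold change (y axis, RPKM plus 0.1) against the mean level of the groups (x axis, RPKM, log axis) for 23299 genes tested (grey) and the 21 tested host genes (circles, filled where the adjusted p was under 0.05). Most host genes sit at or below 2 RPKM, where the grey points spread widest, and *MIR762HG* sits near 0 at 11.8 RPKM.

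A further 20 host genes did not reach the minimum level and were not tested. Of these, 3 had no read in any library (*MIR205HG*, *MIR3945HG* and *MIR3976HG*), 13 had 1 to 5 reads in all and 4 had at least 10. A count of 0 allows up to 3 reads per library, by counting error only. *MIR205HG* hosts miR-205, a microRNA of stratified and glandular epithelium, and it was at 0 in the libraries with the higher epithelial marker sum too. *MIR155HG*, host of the lymphocyte microRNA miR-155, and *MIR194-2HG*, host of miR-192 and miR-194 of the gut epithelium, had 2 reads each, named after their values were seen.

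*MIR137HG*, host of the neural microRNA miR-137, lay just under the minimum. Its level was 0.0916, 0.0886 and 0.0855 RPKM against 0.0224, 0.0270 and 0.0225 RPKM, from 9, 13 and 15 reads against 3, 5 and 5. The 3 HGC27-FN1 3′-UTR libraries were all above the control libraries, at 3.70 times their mean. In a fit without the minimum level, the log2 fold change on the scale of RPKM plus 0.1 was 0.61 (SE 0.12, adjusted p = 0.0439). Of the 50-base words in its transcripts, 7.17% occurred in other genes, 5.59% in *DPYD*. *MIR663AHG* had 28 against 6 reads, but 27 of them were in HGC27-FN1 3′-UTR replicate 3 and 1 in replicate 2. *MIR181A1HG* had 17 against 10 reads and *MIR2052HG* 10 against 8, both with overlapping groups.

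Rows of single microRNA hairpins were present for 20 of the 61 microRNA genes placed in these hosts, and most were near 0. Beside *MIR762* and *MIR221*, the row of *MIR503* held 50 reads, at 4.31, 5.77 and 2.89 RPKM against 4.41, 3.66 and 5.32 RPKM (log2 fold change -0.08, adjusted p = 0.870). *MIRLET7D*, on the strand opposite to *MIRLET7DHG*, had 10 against 13 reads and *MIR125B2* of *MIR99AHG* 5 against 8, both overlapping. *MIR4519*, opposite to an exon of *MIR762HG*, had 8 against 14. The other 14 rows had 5 reads or fewer.

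Other transcripts that host microRNAs under names of their own gave a comparison, from lists chosen with earlier results of these data known. Of 6 tested lncRNA hosts, 3 were higher and none lower, or 50% called, beside 8.62% of tested lncRNAs and 13.0% of all genes, and a list of 6 chosen with results known shows nothing particular to such hosts. *H19*, the imprinted host of miR-675, rose from 0.729, 0.919 and 1.12 RPKM to 2.94, 2.84 and 2.69 RPKM (log2 fold change 1.53, SE 0.14, adjusted p = 0.0028). *DNM3OS*, host of miR-199a and miR-214, was at 0.968, 1.21 and 1.09 RPKM against 0.647, 0.648 and 0.558 RPKM (0.73, SE 0.12, adjusted p = 0.0146). *DANCR* was at 22.8, 21.2 and 22.2 RPKM against 14.9, 17.7 and 18.7 RPKM (0.37, SE 0.08, adjusted p = 0.0385). *LINC00461*, *FTX* and *DLEU2* did not pass, with log2 fold changes of -0.19, 0.15 and -0.05.

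Of 40 tested protein-coding hosts, 5 were higher and 4 lower (22.5%, beside 18.5% of tested protein-coding genes), with a median of 0.03. *IGF2*, the growth factor gene next to *H19* and host of miR-483, fell from 37.6, 33.2 and 29.5 RPKM to 15.2, 16.4 and 17.1 RPKM (log2 fold change -1.03, SE 0.09, adjusted p = 0.0025). *RNF130*, host of miR-340, and *HUWE1*, host of miR-98 and let-7f-2, were both lower by about the same amount, at -0.29 (adjusted p = 0.0233 and 0.0046). *PANK3*, host of miR-103a-1, was higher by 0.25 (adjusted p = 0.0194). *MYH6* and *MYH7*, the cardiac myosin genes that host miR-208a and miR-208b, were named after their values were seen because their control libraries differed widely. *MYH7* was at 16.1 and 10.6 RPKM in control replicates 1 and 2 and at 1.11 RPKM in control replicate 3, beside 1.07, 1.06 and 1.23 RPKM in HGC27-FN1 3′-UTR cells (adjusted p = 0.159).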

How the data were processed

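The 6 HGC27 libraries were analysed, 3 HGC27-FN1 3′-UTR and 3 HGC27-control, grouped by the labels. The study prepared them with a strand-specific mRNA kit, and per the labels' processing notes the reads were handled with Trimmomatic 0.36, STAR 2.5.3a and featureCounts of Subread 1.5.1 on GRCh38. The authors deposited 1 RPKM value per gene and library, and the counting options are not given in the sources used here. RPKM times gene length gave whole reads for 100% of values above 0 (tolerance 0.01 reads), from which the number of reads per gene and library was recovered, so depth is known. The floor of 3 reads per library covers counting error only.

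Genes with at least 0.1 RPKM in 3 or more libraries (23299) were tested with limma 3.58.1 (R 4.3.3, trend) on log2(RPKM + 0.1), two-sided, with Benjamini-Hochberg adjustment over all of them. This scale understates the change of low genes. An exact permutation test of 3 against 3 libraries cannot go below p = 0.1 and was not used. The script was checked on simulated data. Host genes were chosen by symbol, and they and the gene lists were chosen with earlier results of these data known. Host genes that were called or averaged over 1 RPKM are given by library, and those that failed the minimum are named from 10 reads on. Of each list, at most 4 called genes are named by size of change. Mature sequences (RefSeq, GRCh38.p14) follow the called hosts whose microRNA had an entry, which miR-22 did not. Those of shared seeds were added after values were seen. MIR4435-2HG and other loci with near-identical copies were checked by the share of 50-base words in GENCODE 29 transcripts found in other genes.

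Replicates of a group differed beyond sampling noise (chi-square per gene 2.50 to 5.66), and all were kept. Deviations of libraries with the same replicate number were barely correlated (0.00244, 0.0211 and 0.0103). With 3 libraries per group this cannot decide whether the numbers pair samples, and the labels do not say. Alternatives were other pseudocounts (1 and 0.5 RPKM), no minimum, at least 10 reads in 3 libraries, median-ratio scaling, limma voom on the recovered reads, a replicate block and leaving out each library.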

Additional observations from a re-analysis of the deposited data

How the results depend on the processing

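Of the host genes, 3 passed the test in the analysis reported, and 3 also did with a pseudocount of 1 or 0.5 RPKM, with at least 10 reads or with median-ratio scaling. Without a minimum level there were 4 (*MIR137HG* added) and with limma voom on reads 4 (*MIRLET7BHG* added, adjusted p = 0.0428). With the replicate block there were 0, and without 1 library 0 to 2 (all leave-one-out fits kept the same genes under test). Whether the replicate numbers pair the samples is not stated by the labels and not decided by the correlations of the deviations. By the criteria of the study, 0 host genes passed, 1 did with limma voom (*MIR222HG*, log2 fold change 1.07), and 0 to 1 without 1 library (*MIR670HG* without HGC27-FN1 3′-UTR replicate 3). *MIR222HG* was under test only through its HGC27-FN1 3′-UTR libraries.

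Over all genes 3025 were called, 1162 with the replicate block, 5108 with limma voom and 903 to 1864 without 1 library, the lowest without control replicate 2. By the criteria of the study 575 passed, 75 and 146 with a pseudocount of 1 and 0.5 RPKM, 293 with at least 10 reads and 544 to 675 without 1 library.

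Of 269 values of single host genes under an alternative, 240 kept direction and call, 16 lost the call, 2 gained one and 11 turned sign, all at small sizes. With median-ratio scaling *MIR503HG* was at 0.010. Without 1 library, 6 host genes crossed 0: *MIR503HG* ran from -0.11 to 0.16 (above 0 without HGC27-FN1 3′-UTR replicate 2, at 0.0051, or control replicate 2), *MIR4500HG* from -0.067 to 0.19 (below 0 without HGC27-FN1 3′-UTR replicate 2, at -0.049, or control replicate 3) and *MIR548XHG* from -0.25 to 0.079 (above 0 without HGC27-FN1 3′-UTR replicate 1, at 0.037, or control replicate 3). *MIRLET7DHG* ran from -0.090 to 0.23 (below 0 without HGC27-FN1 3′-UTR replicate 2, at -0.0068, or 3), *MIR646HG* from -0.0073 to 0.24 and *MIR193BHG* from -0.42 to 0.023, both crossing 0 without control replicate 3. The cause was not tested. The 20 host genes below the minimum limit what this depth can show.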
